A study of Homo sapiens with 6 samples.

Results

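HOX cluster genes encode homeodomain transcription factors, and this account follows 28 of them through an array comparison of a pair of human lung adenocarcinoma cell lines. Members were the genes with a symbol of the form HOXA, HOXB, HOXC or HOXD and a number, named alone for a probe set in the platform annotation. They came to 44 probe sets for 28 of 19775 named genes, with 1 gene of the A cluster (HOXA2), 10 of the B cluster, 9 of the C cluster and 8 of the D cluster. The RefSeq annotation of GRCh38.p14 lists 39 HOX symbols, and the other 11, most of them in the A cluster, are not analysed here.

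Total RNA was taken from CL1-0, labelled poorly invasive, and from CL1-5, labelled highly invasive, with 3 biological repeats of each, and hybridised to 6 one-colour Affymetrix arrays. Both lines go back to the parental lung adenocarcinoma line CL1 and were grown in RPMI medium with serum and antibiotics, with no treatment that set them apart. Each group is repeats of 1 cell line, so the spread between repeats is that of cultures of a line and holds no spread between tumours. Where the labels call samples biological repeats they do not say how the cultures were kept apart.

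HOX genes lie in 4 clusters, and within a cluster the order of the genes along the chromosome follows the order in which they are used from head to tail in the embryo. The low paralog numbers (called anterior here, 1 to 3) act toward the head, the middle ones (central, 4 to 8) in the trunk, and the high ones (posterior, 9 to 13) in the lumbar, limb and tail regions. HOX proteins bind DNA together with the TALE homeodomain proteins of the PBX and MEIS families, and the clusters are kept silent by Polycomb proteins and active by MLL proteins. Adult lung and airway cells are known for keeping anterior and central genes of the A and B clusters in use.

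RefSeq promoters of 4 members are shown first, because these genes held the largest decreases and increases among the members with an entry and because HOXD8, HOXD10 and HOXD11 stand close together in 1 cluster while moving in opposite directions. Each runs from 250 bases before the transcription start to 50 bases after it, in GRCh38.p14, written in the direction of the gene. Of the 28 genes, 11 had an entry. Capitals mark matches on either strand to the CCAAT box (CCAAT) and to a composite PBX-HOX motif (TGATNNAT), and the TATA box (TATAAA) had no match in these 4. No match overlapped another. HOXA2 lies at chr7:27102634-27102933 on the minus strand, HOXD8 at chr2:176129455-176129754, HOXD10 at chr2:176116528-176116827 and HOXD11 at chr2:176107030-176107329, these on the plus strand.
HOXA2: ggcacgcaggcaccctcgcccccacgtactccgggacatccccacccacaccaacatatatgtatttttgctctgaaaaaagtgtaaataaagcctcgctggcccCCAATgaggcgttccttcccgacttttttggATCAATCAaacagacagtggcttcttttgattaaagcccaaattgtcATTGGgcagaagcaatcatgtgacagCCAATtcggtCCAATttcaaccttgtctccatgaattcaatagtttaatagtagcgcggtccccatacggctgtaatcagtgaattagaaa
HOXD8: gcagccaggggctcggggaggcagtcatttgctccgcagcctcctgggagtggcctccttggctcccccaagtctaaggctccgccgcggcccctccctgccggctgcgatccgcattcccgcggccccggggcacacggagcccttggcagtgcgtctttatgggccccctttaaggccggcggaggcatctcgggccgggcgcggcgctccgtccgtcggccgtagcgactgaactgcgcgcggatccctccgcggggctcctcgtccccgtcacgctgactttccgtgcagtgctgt
HOXD10: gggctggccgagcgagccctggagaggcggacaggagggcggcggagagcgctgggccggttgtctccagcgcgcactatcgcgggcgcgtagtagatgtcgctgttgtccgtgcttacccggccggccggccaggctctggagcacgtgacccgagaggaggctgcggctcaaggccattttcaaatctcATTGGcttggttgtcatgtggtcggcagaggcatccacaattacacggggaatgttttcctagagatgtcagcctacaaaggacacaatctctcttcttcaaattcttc
HOXD11: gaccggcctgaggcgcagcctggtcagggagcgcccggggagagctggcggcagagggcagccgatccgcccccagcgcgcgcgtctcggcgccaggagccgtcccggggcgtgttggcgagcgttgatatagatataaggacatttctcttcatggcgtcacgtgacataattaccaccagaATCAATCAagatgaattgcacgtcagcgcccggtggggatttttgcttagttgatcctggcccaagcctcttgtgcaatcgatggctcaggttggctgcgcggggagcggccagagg

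The HOXA2 promoter held 4 CCAAT boxes and 1 PBX-HOX motif, and 11 CpG dinucleotides. The HOXD8 promoter held none of the 3 motifs and 34 CpG dinucleotides, HOXD10 held 1 CCAAT box and 23 CpG dinucleotides, and HOXD11 held 1 PBX-HOX motif and 27 CpG dinucleotides. Of 35116 promoters of 300 bases in the table, 34.6% held a CCAAT box, 7.4% the PBX-HOX motif and 11.5% a TATA box, and the median count of CpG dinucleotides was 14. The PBX-HOX letters stood in the promoter of a gene that was lower in CL1-5 (HOXA2), of one that was higher (HOXD11) and of one that was not called (HOXB1, not shown). A match describes letters and does not show that a protein binds there.

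Values are probe set signals, and a log2 fold change is CL1-5 over CL1-0 on the log2(signal + 6.85) scale, on which changes of dim genes come out too small. Each gene was read through 1 probe set, with n = 3 arrays per line and an adjusted p from limma's moderated test, a gene being called at an adjusted p under 0.05. A probe set was tested where its signal lay above the 40th percentile of its array (19.5 to 20.3 signal units) on at least 3 of the 6 arrays. That percentile stands in for background. More HOX genes were lower than higher in CL1-5, with HOXB7, HOXB9, HOXC11, HOXD10, HOXD11 and HOXD13 going the other way. Of 28 genes 26 were tested, 6 were higher (23.1%) and 13 lower (50.0%) in CL1-5, and 7 were not called. Among all 14828 genes tested, 23.3% were higher and 28.3% lower, so the share of HOX genes that was higher was near the background and the share that was lower was above it, a difference that was not tested.

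Changes of at least 2-fold were held by 5 HOX genes upward (19.2%) and 8 downward (30.8%), against 8.51% and 7.60% of all genes tested. For 20 of the 26 genes (76.9%) the signals of the lines did not overlap, against 58.8% of all genes tested. The median log2 fold change was -0.42 over the 26 tested HOX genes and -0.03 over all genes tested. HOXA2 and HOXD8 passed the filter through CL1-0, where they were high, so these counts are descriptions. With no filter all 28 genes entered, 6 (21.4%) were higher and 14 (50.0%) lower, against 17.8% and 21.5% of 19775 genes. The gene added was HOXC12 (log2 fold change -0.22, adjusted p = 0.03), which lay at or under the 40th percentile on all 6 arrays. For each of the 19 called genes the signals of the lines did not overlap. Setting arrays of the same repeat number against each other therefore had to give 1 direction in all 3 repeats, and adds no support.

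**Figure D1:**
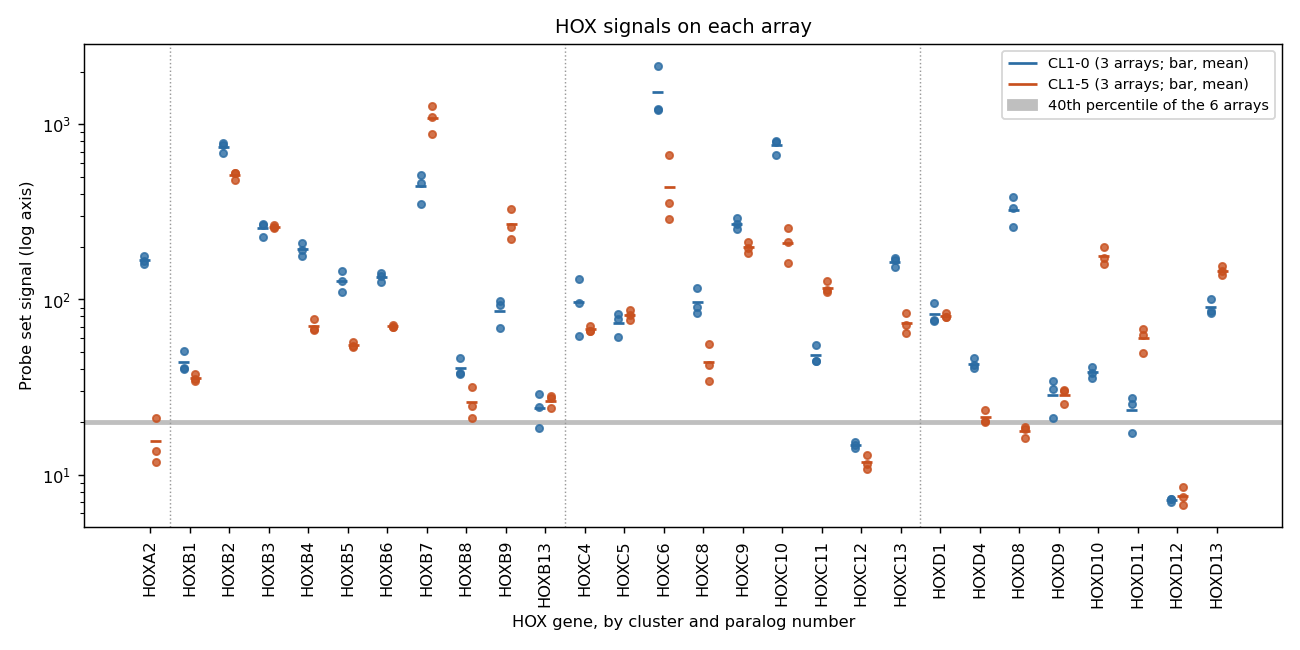
Probe set signal (log axis) of each of the 28 HOX genes on the 3 arrays of CL1-0 (blue) and the 3 of CL1-5 (orange), with bars at the means and a grey band at the 40th percentile of the arrays. In CL1-5 all HOXD8 arrays and 2 of 3 HOXA2 arrays lie under the band, HOXD10 and HOXB9 stand higher there, and HOXB3 and HOXD1 overlap.

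The D cluster held the largest increase, in HOXD10, and, in HOXD8, a decrease to background. HOXD8, a trunk-level gene of the cluster, read 383, 335 and 258 in CL1-0 and 16.2, 18.7 and 18.3 in CL1-5. All 3 CL1-5 arrays lay at or under the 40th percentile, so the decrease is a bound of at least 12.3-fold (log2 fold change -3.74, SE 0.15, adjusted p = 9e-08). HOXD4, which acts in the hindbrain and neck region, read 40.8, 42.0 and 46.3 in CL1-0 and 19.9, 20.3 and 23.4 in CL1-5. It was lower in CL1-5 (log2 fold change -0.83, SE 0.10, adjusted p = 9.2e-05), where 2 of 3 arrays lay above the 40th percentile, and the lines did not overlap.

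HOXD10, a gene of lumbar motor neurons and a known target of miR-10b in breast cancer cells, read 35.6, 41.3 and 38.2 in CL1-0 and 160.1, 172 and 199 in CL1-5. Every CL1-5 array stood far above every CL1-0 array, a 4.06-fold increase (log2 fold change 2.02, SE 0.11, adjusted p = 9.2e-07). HOXD11, which shapes the forearm and the kidney, read 17.2, 27.5 and 25.3 in CL1-0 and 68.3, 49.8 and 63.1 in CL1-5. It rose 2.23-fold (log2 fold change 1.16, SE 0.16, adjusted p = 0.00029), and 2 of 3 CL1-0 arrays lay above the 40th percentile. HOXD13, the digit gene mutated in synpolydactyly, read 101, 83.9 and 85.8 in CL1-0 and 155, 145 and 137 in CL1-5. Its increase was smaller (log2 fold change 0.66, SE 0.11, adjusted p = 8e-04), again with no overlap between the lines.

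Of the other D-cluster genes, HOXD9, which lies between HOXD8 and HOXD10, did not pass (log2 fold change 0.01, 95% interval -0.33 to 0.35, adjusted p = 0.96). HOXD1, at the anterior end, averaged 82.4 ± 11.5 signal units in CL1-0 and 80.6 ± 2.52 in CL1-5 (SD), with a log2 fold change of -0.02 (95% interval -0.28 to 0.24, adjusted p = 0.9). HOXD12 lay at or under the 40th percentile on every array and was not tested. Along the cluster, then, the called genes with numbers 4 and 8 were lower and those with numbers 10, 11 and 13 were higher.

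In the B cluster 5 of 10 genes (50.0%) were lower in CL1-5, 4 of them central, and 2 (20.0%) were higher, HOXB7 and HOXB9. Over all genes tested 28.3% were lower and 23.3% higher, so the share of B-cluster genes that was higher was near the background. HOXB4, known for expanding haematopoietic stem cells, read 191, 210.3 and 178 in CL1-0 and 68.1, 77.4 and 66.7 in CL1-5. HOXB5, which takes part in branching of the embryonic lung, read 145, 127 and 109.8 in CL1-0 and 54.2, 53.4 and 57.2 in CL1-5. HOXB6 read 142, 136 and 127 in CL1-0 and 69.5, 70.0 and 71.2 in CL1-5. In all 3 genes each CL1-5 array lay below each CL1-0 array, with log2 fold changes of -1.37, SE 0.11 (adjusted p = 8e-06), -1.11, SE 0.12 (adjusted p = 5.1e-05) and -0.88, SE 0.09 (adjusted p = 5.5e-05).

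HOXB2, a hindbrain gene, read 768, 784 and 691 in CL1-0 and 484, 529 and 531 in CL1-5. It was lower in CL1-5 by a smaller amount (log2 fold change -0.53, SE 0.09, adjusted p = 0.00083). HOXB8, used to keep myeloid progenitors dividing in culture, was dim in both lines, read 37.5, 46.3 and 37.9 in CL1-0 and 24.6, 21.2 and 31.7 in CL1-5, and was also lower (log2 fold change -0.54, SE 0.14, adjusted p = 0.0088). Both genes kept the lines apart on every array.

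HOXB7, which in tumour cells has been tied to epithelial to mesenchymal transition and to FGF2, read 349, 463 and 516 in CL1-0 and 881, 1101 and 1273 in CL1-5. It was 2.43-fold higher in CL1-5 (log2 fold change 1.28, SE 0.17, adjusted p = 0.00023), although its neighbours on both sides, HOXB6 and HOXB8, were lower. HOXB9, reported as a mediator of lung adenocarcinoma spread downstream of WNT and TCF, read 97.7, 93.0 and 68.5 in CL1-0 and 259, 329.5 and 223 in CL1-5. It was 2.97-fold higher (log2 fold change 1.57, SE 0.17, adjusted p = 7e-05), with no overlap between the lines.

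HOXB3, between HOXB2 and HOXB4, averaged 255 ± 22.8 signal units in CL1-0 and 261 ± 6.29 in CL1-5 (SD). Its arrays overlapped, and its log2 fold change of 0.03 had a 95% interval of -0.19 to 0.25 (adjusted p = 0.8). HOXB1, the gene of the fourth hindbrain segment, read 40.9, 40.3 and 50.6 in CL1-0 and 34.3, 35.0 and 37.6 in CL1-5. Its arrays did not overlap, but it did not pass (log2 fold change -0.25, SE 0.11, adjusted p = 0.08), and blocking on repeat number brought it to an adjusted p of 0.047. HOXB13, the prostate lineage factor, lay near the 40th percentile in both lines (log2 fold change 0.13, 95% interval -0.18 to 0.43, adjusted p = 0.47).

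**Figure D2:**
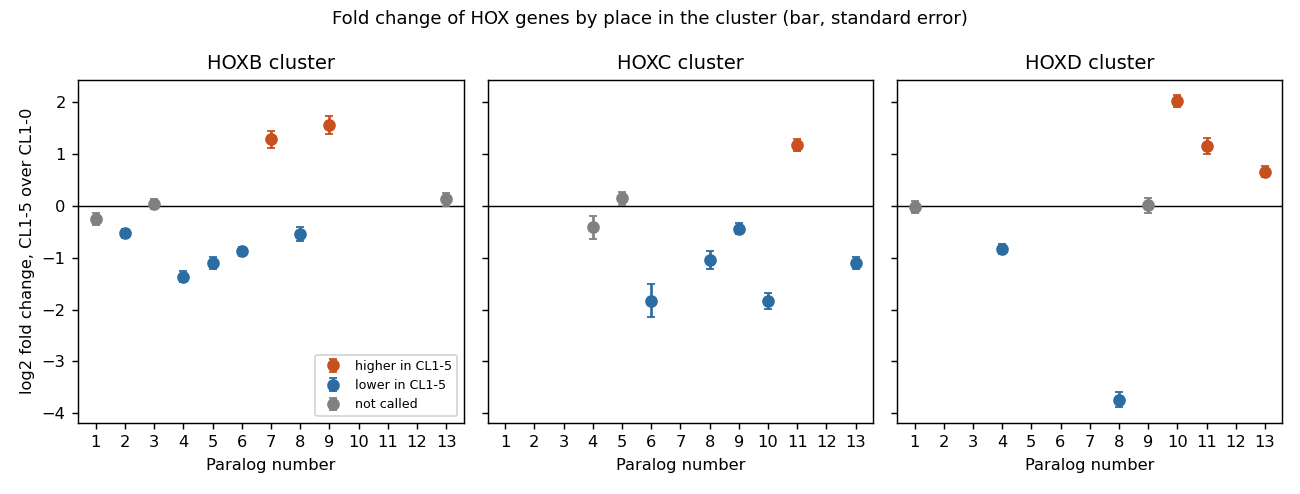
Log2 fold change of CL1-5 over CL1-0 with its standard error against the paralog number in the B, C and D clusters, blue for lower, orange for higher and grey for genes not called. In the D cluster HOXD8 lies at -3.74 and HOXD10 at 2.02, and in the B cluster HOXB7 (1.28) and HOXB9 (1.57) stand above the lower genes HOXB4 to HOXB6 and HOXB8.

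The C cluster was lower in CL1-5 at 5 of 8 tested genes (62.5%) and higher at 1 (12.5%). Of all genes tested 28.3% were lower and 23.3% higher, and the difference from these shares was not tested. HOXC10, a gene of lumbar motor neurons and hindlimb, read 673, 796 and 807 in CL1-0 and 162, 212 and 257 in CL1-5. HOXC6, a thoracic-level gene, read 1211, 1223 and 2159 in CL1-0 and 288, 354 and 670.2 in CL1-5. Both were about equally lower, HOXC10 3.57-fold (log2 fold change -1.84, SE 0.16, adjusted p = 1.5e-05) and HOXC6 3.56-fold (log2 fold change -1.83, SE 0.32, adjusted p = 0.0012). Repeat 3 was the highest HOXC6 array of each line, and the difference within repeat 3 alone was -1.68.

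HOXC13, which controls hair and nail keratins, read 173, 153 and 167 in CL1-0 and 64.2, 71.4 and 83.9 in CL1-5. HOXC8, which marks brachial and thoracic levels, read 116, 83.9 and 90.5 in CL1-0 and 55.8, 42.2 and 34.1 in CL1-5. HOXC9, which sets thoracic motor neurons apart, read 271, 252 and 291 in CL1-0 and 185, 197 and 214 in CL1-5. All 3 were lower with no overlap, by -1.10, SE 0.12 (adjusted p = 5.5e-05), -1.04, SE 0.17 (adjusted p = 0.001) and -0.44, SE 0.10 (adjusted p = 0.0053) on the log2 scale. HOXC11, a gene of hindlimb and kidney, went the other way and read 44.4, 44.4 and 55.0 in CL1-0 and 110.2, 127 and 113 in CL1-5. It was 2.26-fold higher (log2 fold change 1.18, SE 0.11, adjusted p = 3.3e-05), next to HOXC10, which was lower, and to HOXC12, which could not be tested.

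HOXC4, which in B cells activates the deaminase gene of antibody diversification, read 61.9, 96.1 and 130.3 in CL1-0 and 66.0, 66.1 and 70.6 in CL1-5. The CL1-0 arrays spread widely and overlapped those of CL1-5, and the gene did not pass (log2 fold change -0.41, SE 0.22, adjusted p = 0.15). It passed as lower when repeats were blocked (adjusted p = 0.024) and without CL1-0 repeat 1 (log2 fold change -0.68, adjusted p = 0.006). HOXC5 had a log2 fold change of 0.14 (95% interval -0.14 to 0.43, adjusted p = 0.38). HOXC12 averaged 14.8 ± 0.57 signal units in CL1-0 and 11.7 ± 1.05 in CL1-5 (SD), under the 40th percentile on all arrays. The RefSeq spans of HOXC4, HOXC5 and HOXC6 all begin at position 54016888 of chromosome 12 in GRCh38.p14 and overlap, so signals of these 3 genes may not be independent.

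HOXA2, which patterns the second branchial arch and the hindbrain, was the one gene of the A cluster among the members. It measured 159.5, 166 and 177 in CL1-0 and 13.6, 11.7 and 21.2 in CL1-5. The decrease came to 7.92-fold (log2 fold change -2.99, SE 0.15, adjusted p = 5e-07), and 1 of the 3 CL1-5 arrays lay above the 40th percentile, so the low side is poorly measured. The noncoding RNAs HOXA-AS2 and HOXA-AS3, which lie in the anterior to central stretch of the same cluster, were lower as well. HOXA-AS2 read 108, 89.1 and 71.1 in CL1-0 and 38.1, 29.1 and 23.3 in CL1-5 (log2 fold change -1.38, SE 0.18, adjusted p = 0.00021). HOXA-AS3 read 65.3, 47.3 and 62.1 in CL1-0 and 16.8, 17.0 and 21.0 in CL1-5 (log2 fold change -1.37, SE 0.13, adjusted p = 2.9e-05). For HOXA-AS3 too, 1 of the 3 CL1-5 arrays lay above the 40th percentile. In both RNAs, each CL1-5 array lay below each CL1-0 array. The other HOXA-AS2 probe sets were lower as well, by at least 3.15-fold and 1.92-fold, since all their CL1-5 arrays lay at or under that percentile. HOTTIP, the noncoding RNA at the posterior end of that cluster, had a log2 fold change of -0.14 (95% interval -0.45 to 0.17, adjusted p = 0.44).

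Read across clusters, members of a paralog group share homeodomain sequence and often function. In group 8, HOXB8, HOXC8 and HOXD8 were all lower, in group 6 HOXB6 and HOXC6 were, and in group 2 HOXA2 and HOXB2 were. In group 11, HOXC11 and HOXD11 were both higher. Groups 10 and 13 split, with HOXC10 and HOXC13 lower and HOXD10 and HOXD13 higher, and group 9 split into HOXB9 higher, HOXC9 lower and HOXD9 not called. Of 5 anterior genes 2 were lower and 0 higher, of 11 central genes 8 were lower and 1 higher (HOXB7), and of 10 tested posterior genes 3 were lower and 5 higher. Over all genes tested 28.3% were lower and 23.3% higher, so the share of posterior genes that was lower was near the background. The median log2 fold change was -0.88 over the central genes and 0.39 over the tested posterior genes. By cluster, the posterior genes of the D cluster were 3 higher and 0 lower of 4 tested, and those of the C cluster 1 higher and 3 lower of 4.

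More than 1 probe set read 13 of the 28 genes, and 37 of the 44 probe sets could be tested. Tested one by one, 14 of the 37 were higher and 15 lower in CL1-5, against 19.8% and 24.6% of 33777 probe sets. Both shares lay above these, a difference that was not tested. HOXB7, HOXD10 and HOXD13 each gave 3 of the higher probe sets, so such genes count more than once here. For 8 genes at least 2 probe sets were tested, 7 of them had all probe sets in 1 class, and 0 genes had probe sets called in opposite directions. The 3 probe sets of HOXD10 had log2 fold changes of 2.02, SE 0.12, 1.30, SE 0.14 and 1.18, SE 0.15. The latter pair were at or under the 40th percentile on all CL1-0 arrays, so their increases are bounds of at least 1.65-fold and 1.66-fold. The 3 of HOXB7 had 1.28, SE 0.18, 1.32, SE 0.17 and 0.70, SE 0.15, the smallest from a probe set of the kind that can bind other transcripts (suffix x). The 3 of HOXD13 had 0.66, SE 0.11, 0.86, SE 0.13 and 0.72, SE 0.20. HOXD9 was the 1 gene of the 8 with mixed calls, since its dimmer probe set was higher (0.42, SE 0.14, adjusted p = 0.045) and its brighter one was not called. HOX paralogs share homeobox sequence, and how far the probes avoid it is not given in the sources used here.

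**Figure D3:**
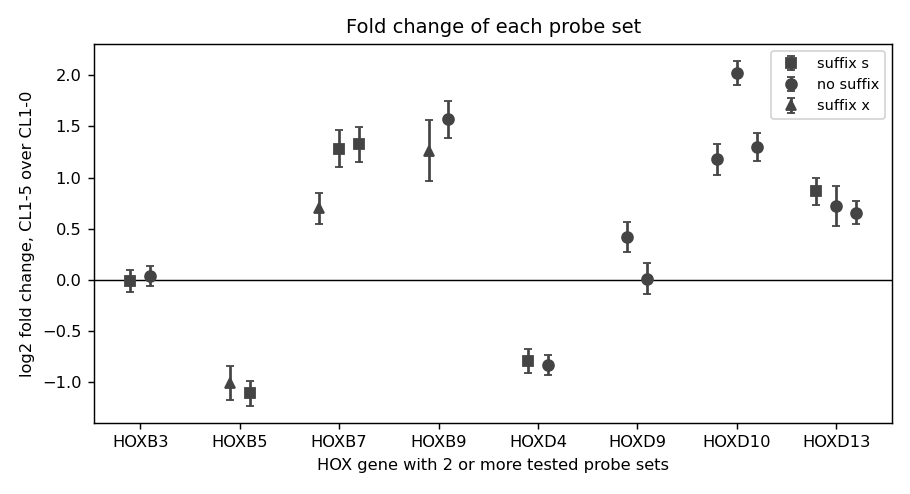
Log2 fold change with its standard error of each tested probe set for the 8 genes with 2 or more, by the suffix of the probe set. Probe sets of HOXB3 lie near 0, those of HOXB5 and HOXD4 below 0, those of HOXB7, HOXB9, HOXD10 and HOXD13 above it, and the pair for HOXD9 differ, at 0.42 and 0.01.

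Noncoding RNAs of the clusters had 11 of 19 listed names given alone to a probe set, of which 8 were tested, 3 were lower (37.5%, against 28.3% of all genes tested) and 0 higher. With no filter HOTAIR (0.15, adjusted p = 0.047) and HAGLROS (0.33, adjusted p = 0.037) were higher on the log2 scale, both at or under the 40th percentile on at least 5 of the 6 arrays. Besides the HOXA antisense RNAs, HOXD-AS2, which lies next to HOXD8, read 68.2, 73.1 and 90.0 in CL1-0 and 31.6, 35.2 and 25.1 in CL1-5. It was lower (log2 fold change -1.16, SE 0.14, adjusted p = 0.00012), as HOXD8 was. HOXB-AS3, which lies by HOXB5, was not called through its brightest probe set (-0.21, SE 0.09, adjusted p = 0.11 among all probe sets), while 2 dimmer ones were lower (adjusted p = 0.00021 and 0.002), by at least 1.48-fold and 1.39-fold, since all their CL1-5 arrays lay at or under the 40th percentile. HAGLR, near HOXD1, did not pass (log2 fold change 0.18, adjusted p = 0.41), as HOXD1 did not. HOTAIR, the C-cluster RNA that recruits Polycomb, averaged 5.64 ± 0.53 signal units in CL1-0 and 7.02 ± 0.52 in CL1-5 (SD), under the 40th percentile on every array.

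TALE cofactors, the DNA-binding partners of HOX proteins, were lower in 3 of 8 tested genes (37.5%) and higher in 1 (12.5%), against 28.3% and 23.3% of all genes tested, a gap of about 1 gene each way. MEIS1, a partner of HOX proteins in development and leukaemia, read 275, 244 and 273 in CL1-0 and 37.4, 42.1 and 57.7 in CL1-5. It fell strongly (log2 fold change -2.38, SE 0.15, adjusted p = 1.7e-06), and its second probe set gave -2.25, SE 0.13. MEIS2 (-0.51, SE 0.15, adjusted p = 0.016) and PBX4 (-0.67, SE 0.14, adjusted p = 0.0042) were lower, and PKNOX1 was higher through its brightest probe set (0.47, SE 0.15, adjusted p = 0.029) but not called through the other 2 tested ones (0.07, SE 0.12, adjusted p = 0.7, and 0.15, SE 0.09, adjusted p = 0.23). The number of TALE genes higher went to 2 with the repeat number as a block and to 0 without CL1-0 repeat 2, CL1-5 repeat 1 or CL1-5 repeat 2. The number lower went to 4 with the block, with the filter at the 60th percentile or without CL1-0 repeat 3. It went to 2 without CL1-5 repeat 1 or CL1-5 repeat 2. MEIS3 was not called (-0.22, SE 0.11, adjusted p = 0.15 among all probe sets), while its brighter probe set, of suffix x, was lower (-0.54, SE 0.11, adjusted p = 0.0044). PBX2 probe sets disagreed, the brightest not being called (-0.44, SE 0.29, adjusted p = 0.28) and 2 others higher (0.75, SE 0.12 and 0.53, SE 0.14).

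Polycomb proteins, which silence HOX clusters, changed in both directions. Of 22 tested genes 11 were lower (50.0%) and 8 higher (36.4%), against 28.3% and 23.3% of all genes tested, with a median log2 fold change of -0.27. EZH2, the methyltransferase of the complex, named after its values were seen, averaged 725 ± 1.34 signal units in CL1-0 and 296 ± 20.0 in CL1-5 (SD) and was lower (log2 fold change -1.27, SE 0.08, adjusted p = 2.7e-06). CBX2, the reader subunit whose loss shifts HOX boundaries in mice, was lower (-1.89, SE 0.15). So was the subunit PCGF2 (-1.30, SE 0.16), though through a probe set of suffix x, which can bind other transcripts. The cofactor JARID2 was higher (1.72, SE 0.15), as was the subunit PHC2 (1.33, SE 0.12). Of 13 tested genes among the MLL and CDX activators and related enzymes 4 were lower (30.8%, near the 28.3% of all genes tested) and 0 higher. The lower ones were the demethylase KDM6B (-0.78, SE 0.17, adjusted p = 0.0037), the MLL subunit RBBP5 (-0.67, SE 0.12, adjusted p = 0.0013), the histone methyltransferase DOT1L (-0.39, SE 0.15, adjusted p = 0.049) and the chromatin tether PSIP1 (-0.27, SE 0.08, adjusted p = 0.018). That count of lower genes was 8 with the repeat number as a block, 7 without CL1-0 repeat 3, and 2 without CL1-0 repeat 1, CL1-0 repeat 2 or CL1-5 repeat 2.

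Genes flanking the clusters were taken as the 2 nearest protein-coding genes on each side in RefSeq. EVX2, one of them, is not analysed here. Of 14 tested, 4 were higher (28.6%) and 6 lower (42.9%), against 23.3% and 28.3% of all genes tested. With the repeat number as a block 8 were lower, SMUG1 (adjusted p = 0.00084) and MTX2 (adjusted p = 0.026) being added. SKAP2, a neighbour of the A cluster, read 769, 728 and 663 in CL1-0 and 135, 124 and 139 in CL1-5. It was much lower in CL1-5 (log2 fold change -2.38, SE 0.10, adjusted p = 1.1e-07), whereas SNX10, another neighbour of that cluster, was slightly higher (0.37, SE 0.09, adjusted p = 0.0094). Of its other neighbours HIBADH was lower (-0.53, SE 0.08, adjusted p = 0.00072) and EVX1 was not called (-0.02, SE 0.20, adjusted p = 0.95). Around the B cluster SKAP1 (at least 1.12-fold), SNX11 (0.46, SE 0.08) and CALCOCO2 (0.34, SE 0.08) were higher, and TTLL6 was not tested. Around the C cluster CBX5 (-0.91, SE 0.16), ATP5MC2 (-0.60, SE 0.10) and CALCOCO1 (-0.33, SE 0.10) were lower and SMUG1 was not called without the block (-0.34, SE 0.20). Around the D cluster LNPK (0.16, SE 0.11) and MTX2 (-0.18, SE 0.09) were not called without the block and HNRNPA3 was lower (-0.93, SE 0.12), while the large opposite changes of HOXD8 and HOXD10 lay inside.

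**Figure D4:**
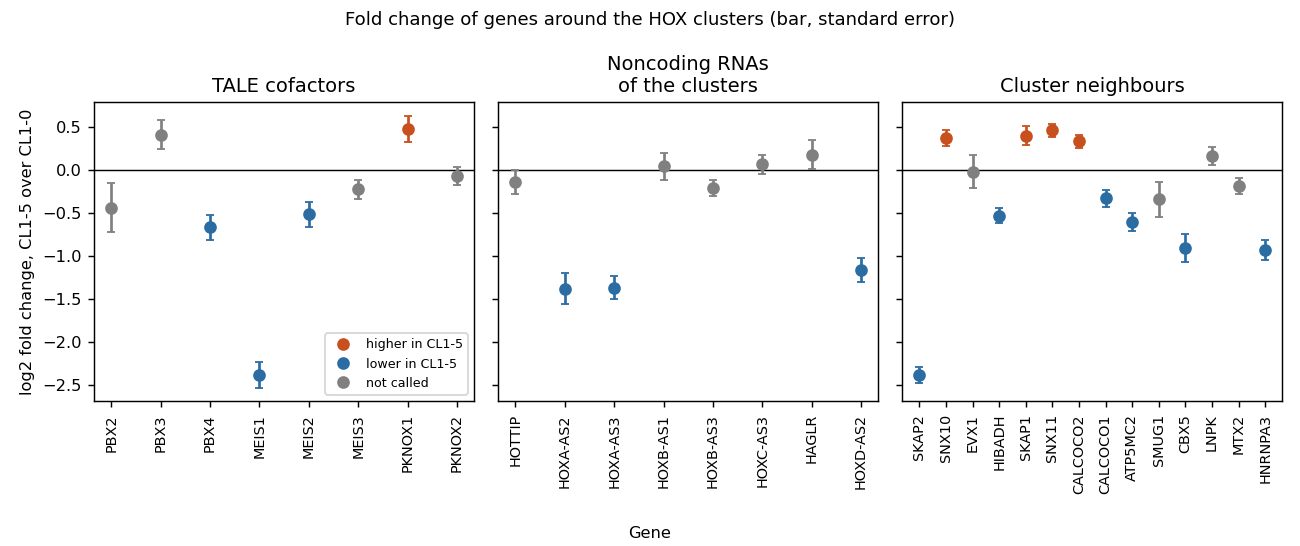
Log2 fold change of CL1-5 over CL1-0 with its standard error for tested TALE cofactors, noncoding RNAs of the HOX clusters and genes flanking the clusters, blue for lower, orange for higher and grey for not called. MEIS1 and SKAP2 lie lowest, both at -2.38, and the highest gene shown is PKNOX1 at 0.47.

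The labelled tissue was checked against listed markers. Of 12 markers of lung adenocarcinoma and epithelium named alone for a probe set, 10 were tested, 2 (KRT8 and KRT18, 20.0%) were higher and 1 (EPCAM, 10.0%) lower. KRT8 and KRT18 were each read through 1 probe set, of suffix x, which can bind other transcripts. Of all genes tested 23.3% were higher and 28.3% lower. KRT19 and SFTPD lay at or under the 40th percentile on all arrays. So did EPCAM on all CL1-5 arrays, and its decrease is a bound of at least 1.35-fold. The lung lineage factor NKX2-1 was near background at 26.9 ± 3.30 signal units in CL1-0 and 25.0 ± 0.50 in CL1-5 (SD). The summed signal of those 12 markers ran from 592 to 632 in CL1-0 and from 4862 to 5688 in CL1-5. Without KRT8 and KRT18 the other 10 summed to 491 to 537 in CL1-0 and 479.7 to 488 in CL1-5. Of other cell types, 0 of 3 tested fibroblast markers, 0 of 1 leukocyte marker, 1 of 3 neuroendocrine markers (CHGA, lower) and 1 of 3 endothelial markers (PECAM1, higher) were called. LUM, PTPRC, CD14, LYZ, CDH5, KDR and INSM1 lay at or under the 40th percentile on all arrays, whereas COL1A1, COL1A2, DCN, CD3E, PECAM1, TEK, SYP, CHGA and NCAM1 lay above it on all arrays of both lines. Summed signals were 136 to 150 in CL1-0 and 123 to 129 in CL1-5 for 6 fibroblast markers, and 103 to 125 and 182 to 193 for 5 endothelial ones. They were 60.2 to 62.5 and 53.8 to 60.2 for 4 leukocyte markers, and 159.5 to 186 and 132 to 154 for 4 neuroendocrine ones. The log2 ratio of the 3′ over the 5′ ACTB controls, which tracks RNA integrity, averaged 0.71 ± 0.40 (SD) in CL1-0 and 0.54 ± 0.32 in CL1-5. In repeats 1, 2 and 3 it was 0.53, 0.44 and 1.17 in CL1-0 and 0.31, 0.40 and 0.91 in CL1-5. The GAPDH ratio averaged 0.16 ± 0.09 in CL1-0 and 0.08 ± 0.10 in CL1-5 (SD). Both ratios were lower in CL1-5 in all 3 repeats, and both were highest in repeat 3 of each line. The part of these markers and of RNA quality in the HOX differences was not tested.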

How the data were processed

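Each deposited value is a linear intensity of 1 probe set. The authors used MAS5 per the submitters' processing notes, with version and further steps not given in the sources used here. Array medians were 30.2 to 30.9, and precision is limited by there being 3 arrays per line. The platform annotation gave 41091 of 54675 probe sets 1 symbol, and 41037 were matched to RefSeq GRCh38.p14. Signals were taken as log2(signal + 6.85), where 6.85 is the 10th percentile over the whole table. A gene was the tested probe set with the highest mean log2 value, without suffix x where another passed. Lines were compared across all genes in R 4.3.3 with limma 3.58.1 (trend in the prior variance) and Benjamini-Hochberg adjustment, and the steps were tested on simulated data. The simulated noise was independent between arrays, so that test does not cover deviations shared by arrays of 1 repeat number. A fold against a line at or under the 40th percentile on all its arrays is a bound, against the higher of percentile and signal on each array. P-values set the difference between the lines against the spread between these repeats, moderated over all genes.

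Every HOX gene is named, with up to 4 called genes of largest change in each list and all flanking genes. HOTTIP, HAGLR, HOTAIR, HAGLROS, HOXB-AS3, PBX2, EZH2 and DLX1 were added after their values were seen. Members and lists were chosen with earlier results of these data known. The repeat numbers come from the titles, and arrays of 1 number deviated together from their lines' means (correlations 0.475, 0.28 and 0.649), so numbers served as pairs in an alternative with a block. The main comparison had no block, since the labels do not tie a number to a shared day. Alternatives were the constant, the filter, scaling, the variance prior, array weights, the probe set, the block, the threshold, leaving out each array, and repeats 1 and 2 alone.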

Additional observations from a re-analysis of the deposited data

How the results depend on the processing

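The count of higher HOX genes was 6 and of lower ones 13. Leaving out each array gave 6 to 6 higher and 13 to 14 lower, and repeats 1 and 2 alone gave 6 and 13. The block by repeat number gave 6 higher and 15 lower, the 2 added being HOXB1 and HOXC4, and it changed no other HOX call. The other alternatives, the fold threshold aside, gave 5 to 7 higher and 11 to 16 lower, the lowest with the filter at the 60th percentile, which tests fewer genes. Requiring at least 2-fold left 5 higher and 8 lower. No HOX gene that was called changed sign under any of these alternatives, or within repeat 3. For each called gene the signals of the lines did not overlap. Leaving out arrays, taking repeats apart, or changing the constant, the weights or the block therefore could not change a sign, and adds no support. Calls gained were HOXB1, HOXC4 and HOXD1 (adjusted p = 0.02, 0.0032 and 0.047) with array weights and HOXD9 with every probe set tested on its own. The cause was not tested. For HOXA2 and HOXD8 the signal over background in CL1-5 limits the size of the fold.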

Other observations

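Other homeobox genes of the same class outside the clusters were also measured, CDX1, CDX2 and CDX4 being shared with the list of activators. Of 23 tested, 9 were lower (39.1%) and 2 higher (8.70%) in CL1-5, against 28.3% and 23.3% of all genes tested. DLX2, a forebrain and jaw gene, read 436, 419.9 and 505 in CL1-0 and 53.8, 53.4 and 62.9 in CL1-5 and was lower (log2 fold change -2.86, SE 0.11, adjusted p = 9.4e-08). EMX2, which patterns cortex and the urogenital tract, was at least 3.77-fold lower, DLX6 was lower (-1.22, SE 0.15), and MSX1 (1.30, SE 0.10) and DLX1 (0.26, SE 0.09, adjusted p = 0.044) were higher. The count of higher genes was 1 with no filter and without any 1 array other than CL1-0 repeat 1.

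Retinoic acid, a vitamin A derivative, switches on anterior HOX genes in the embryo. Of 13 tested genes of its synthesis, breakdown and receptors 4 were lower (30.8%) and 3 higher (23.1%), close to the 28.3% and 23.3% of all genes tested. RDH10, the retinol dehydrogenase that forms retinaldehyde, averaged 2889 ± 319 signal units in CL1-0 and 195 ± 23.1 in CL1-5 (SD) and was lower (log2 fold change -3.85, SE 0.11, adjusted p = 1.5e-08). ALDH1A1, which turns retinaldehyde into retinoic acid, was at least 183-fold lower and the receptor RARB lower (-2.57, SE 0.18), while the reductase DHRS3, which turns retinaldehyde back to retinol, was higher (2.33, SE 0.16).

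Probe sets named for LOC401021, HOXD4 and HOXD3 together numbered 3 and lay at or under the 40th percentile on all 6 arrays. The brightest read 17.3, 17.1 and 16.6 in CL1-0 and 9.92, 9.45 and 9.50 in CL1-5.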
